A study of Mus musculus with 96 samples.

Results

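Potassium channel genes were followed through all 6 tables of consensus peaks, as the peaks whose deposited gene symbol starts with Kcn, with the antisense transcript Kcnq1ot1 left out. The rule gave 119 of 22815 peaks, annotated to 73 genes. H3K4me3 gave 67 of 12628 peaks in NeuN+ and 13 of 3270 in NeuN- nuclei. H3K27me3 gave 19 of 4132 and 18 of 1698, and Suz12 gave 1 of 775 and 1 of 312. Every member peak was kept, since no filter on low values was applied.

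Chromatin immunoprecipitation and sequencing had been done on hippocampal nuclei of 6-month-old male C57BL/6N mice, sorted by flow cytometry on NeuN, a neuronal nuclear protein, into neuronal (NeuN+) and non-neuronal (NeuN-) fractions. Wild type (WT) mice were compared with mice that lack the DNA glycosylase Mutyh (Mutyh-/-), with mice that lack the DNA glycosylase Ogg1 (Ogg1-/-) and with the double knockout (DKO), which lacks both. The knockouts are constitutive, no treatment was given, and every genotype had 3 libraries for each antibody and fraction, each from hippocampi pooled over several mice of that genotype. DNA glycosylases cut damaged or mispaired bases out of DNA, and the study asked whether their loss alters histone marks and Polycomb occupancy.

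Potassium channels let potassium leave or enter the cell and so set the resting potential, the shape of the action potential and the rate of firing. Pore-forming subunits are voltage-gated, inwardly rectifying, tandem-pore leak channels or gated by calcium or sodium, whereas silent modifier subunits form no working channel alone and auxiliary subunits change gating or transport. H3K4me3 marks promoters that are active or poised, and H3K27me3 is laid down by Polycomb repressive complex 2 (PRC2), of which Suz12 is a core subunit, over silenced genes.

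The sequences below carry the patterns described further on and were read from the plus strand of GRCm38, with CG dinucleotides in capitals. They show windows of genes with a PRC2-linked peak in NeuN+ or in NeuN- nuclei, not in both. Each lies inside the 401-bp counting window of its peak and outside annotated untranslated exons. The window of the only Suz12 peak in NeuN+ nuclei, in coding sequence of Kcna7 at chr7:45406489-45406788, held 49 CG in 300 bases.
Kcna7, Suz12 NeuN+: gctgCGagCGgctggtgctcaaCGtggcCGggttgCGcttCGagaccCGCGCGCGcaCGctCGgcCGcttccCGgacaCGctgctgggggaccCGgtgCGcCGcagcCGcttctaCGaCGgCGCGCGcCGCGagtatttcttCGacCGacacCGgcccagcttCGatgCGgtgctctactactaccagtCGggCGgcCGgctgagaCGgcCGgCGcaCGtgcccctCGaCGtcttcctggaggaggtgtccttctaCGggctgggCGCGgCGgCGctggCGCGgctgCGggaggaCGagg
At the Kcnj8 promoter H3K4me3 and H3K27me3 windows nearly coincided in NeuN+ nuclei, and the stretch shown, at chr6:142571070-142571183, held 6 CG in 114 bases.
Kcnj8, H3K27me3 NeuN+: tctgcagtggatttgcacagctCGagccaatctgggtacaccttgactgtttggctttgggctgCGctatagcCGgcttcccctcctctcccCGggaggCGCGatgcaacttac
The windows of Kcng3 at chr17:83631054-83631353 and of Kcnk12 at chr17:87797995-87798220 carried H3K27me3 in NeuN- nuclei beside an H3K4me3 peak of the same gene in NeuN+ nuclei, and held 34 and 14 CG.
Kcng3, H3K27me3 NeuN-: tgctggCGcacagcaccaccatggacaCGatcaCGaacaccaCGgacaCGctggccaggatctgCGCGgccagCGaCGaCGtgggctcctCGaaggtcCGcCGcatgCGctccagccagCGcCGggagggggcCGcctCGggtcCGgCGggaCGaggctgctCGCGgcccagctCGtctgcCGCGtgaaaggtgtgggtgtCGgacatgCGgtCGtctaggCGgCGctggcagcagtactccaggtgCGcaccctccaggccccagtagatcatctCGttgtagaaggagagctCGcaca
Kcnk12, H3K27me3 NeuN-: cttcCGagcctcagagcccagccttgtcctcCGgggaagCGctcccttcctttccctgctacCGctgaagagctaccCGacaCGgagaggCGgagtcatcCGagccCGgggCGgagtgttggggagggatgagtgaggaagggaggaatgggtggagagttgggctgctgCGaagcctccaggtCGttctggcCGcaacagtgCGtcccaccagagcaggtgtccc
The last is the intergenic window named for Kcnj1 at chr9:32408918-32409217, which passed the threshold of the study in DKO, with 8 CG in 300 bases.
Kcnj1, H3K27me3 NeuN+: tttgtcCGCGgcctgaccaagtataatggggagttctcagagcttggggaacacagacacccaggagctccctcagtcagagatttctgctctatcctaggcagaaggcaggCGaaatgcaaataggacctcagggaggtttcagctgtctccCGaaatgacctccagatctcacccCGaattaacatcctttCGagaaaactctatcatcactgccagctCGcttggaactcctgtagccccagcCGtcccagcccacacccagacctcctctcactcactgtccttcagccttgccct

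Depth set what could be seen. A value is the number of reads in the window divided by a factor for the library, and the tables were normalized separately, so levels are compared only within a table. In H3K4me3 NeuN+, a member window held a median of 22 reads per library (range 2 to 78). In H3K27me3 it held 5 reads in each fraction, and 11.8% of the values in NeuN+ and 12.5% in NeuN- nuclei were 0. The libraries numbered 1 stood apart in all 4 genotypes. In NeuN- nuclei they had 49.9% to 67.9% of their H3K4me3 reads in promoter peaks, against 23.4% to 38.1% in replicates 2 and 3, and 21.4% to 43.6% of their H3K27me3 reads, against 3.5% to 25.1%. In H3K27me3 of NeuN+ nuclei the split was the other way, with 12.1% to 29.7% of reads in promoter peaks against 32% to 37.9%, and with 0.136% to 0.344% in member peaks against 0.357% to 0.481%. Repeat windows, at least 50% masked, shifted in the opposite direction. In libraries numbered 1 they held 29.3% to 44.7% (H3K4me3 NeuN-), 24.4% to 61.8% (H3K27me3 NeuN-) and 17.3% to 56.9% (H3K27me3 NeuN+) of reads in peaks. In replicates 2 and 3 they held 54.1% to 67.8%, 52.9% to 82.6% and 6.68% to 13.5%. The other shares are lower where repeats take more. The defining markers of the fractions were checked at promoters. Of 11 neuronal markers, 9 had an H3K4me3 peak in NeuN+ and 0 in NeuN- nuclei. NeuN- nuclei had one for Slc1a2 of 7 astrocyte markers and for Olig1 of 8 oligodendrocyte markers, and for 0 of 5 microglial and 0 of 3 endothelial markers, so that most markers of non-neuronal cells were absent from that table. In NeuN+ nuclei, 3 astrocyte and 2 oligodendrocyte markers had one. Fewer nuclei of a type and less mark per nucleus cannot be told apart in these data.

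Which potassium channel genes carried which mark was the first question. H3K4me3 in NeuN+ nuclei covered 64 of the 73 genes, and 33 genes carried that peak and no other. A further 12 genes had H3K4me3 in both fractions, and 12 others had H3K4me3 in NeuN+ together with H3K27me3 in NeuN- nuclei. With Kcnk12, named below, the genes with H3K4me3 in both fractions were 20.3% of the 64, beside 26.1% over all genes. Both marks were found in NeuN+ nuclei at 5 genes (Kcnh2, Kcnh7, Kcnip1, Kcnj8 and Kcnmb2). These were 7.81% of the 64, beside 7.82% over all genes. H3K27me3 without H3K4me3 in either fraction was left to 9 genes: Kcnh8, Kcnj1, Kcnmb1 and Kcnn4 in NeuN+ nuclei, Kcnj5, Kcnk15 and Kcnq1 in both fractions, Kcna7 with Suz12 in NeuN+ nuclei, and Kcne3 in NeuN- nuclei. Kcnk12 had H3K4me3 in both fractions and H3K27me3 in NeuN-, and Kcnj6 had H3K4me3 in NeuN+ and Suz12 in NeuN- nuclei.

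**Figure D1:**
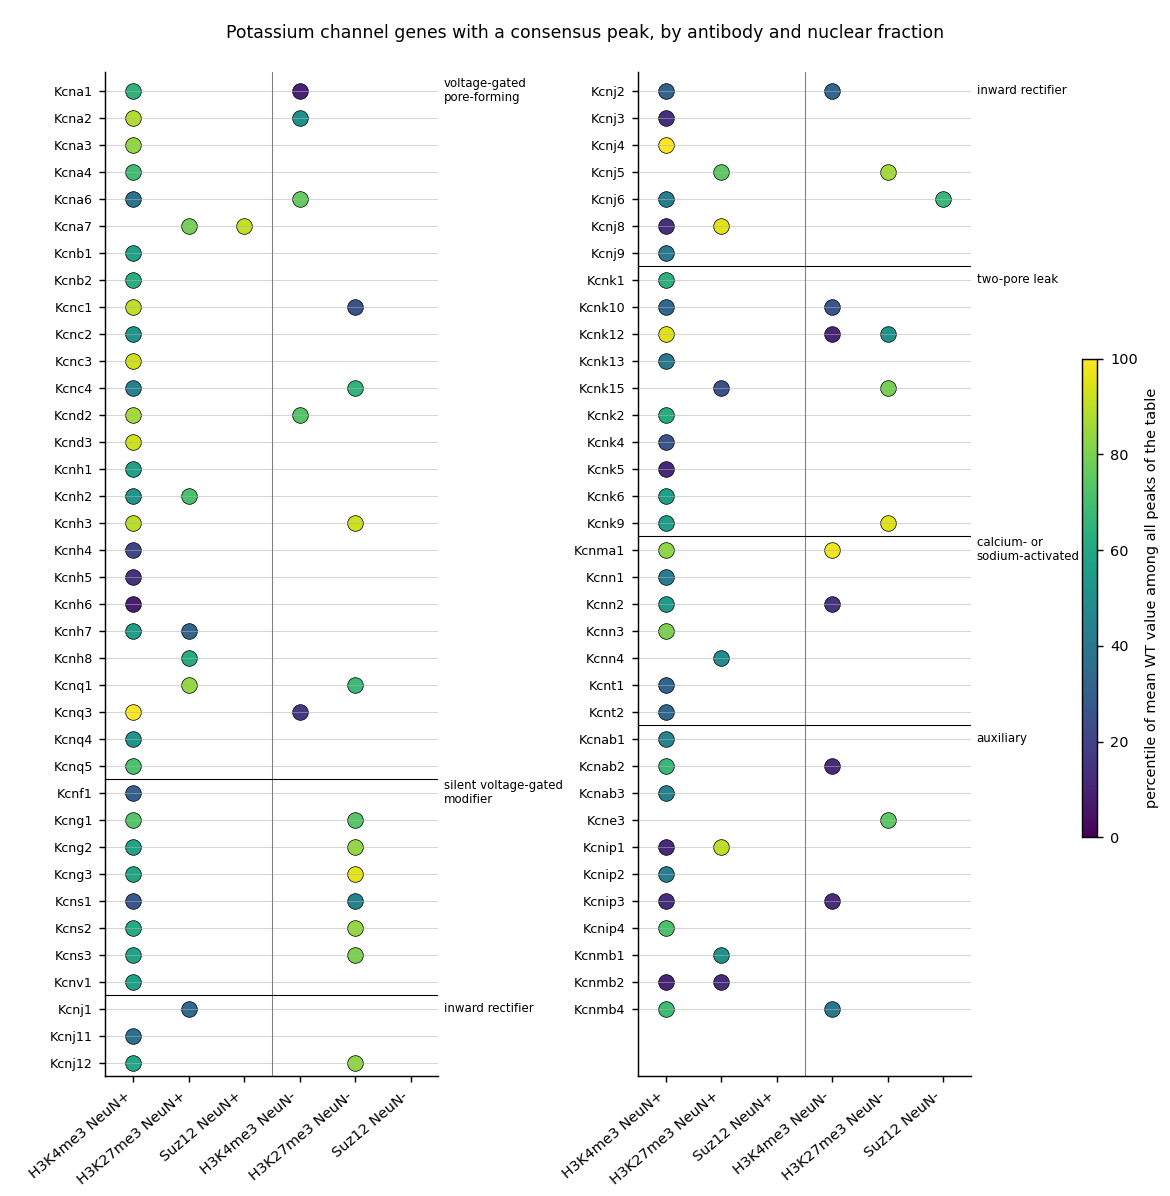
Each dot marks a gene (rows, grouped by class, 1 gene not drawn) with at least 1 consensus peak of the antibody and fraction on the x axis, coloured by the percentile of its highest mean WT value among all peaks of that table. The first column is filled for most genes, and the dots of the silent modifiers fall only in the H3K4me3 NeuN+ and H3K27me3 NeuN- columns.

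The RefSeq annotation of GRCm38 lists 92 protein-coding Kcn genes, and no peak of the tables was annotated to 19 of them. Among these were Kcnj10 and Kcnj16, inward rectifiers best known from glia, and Kcnk3 and Kcnk18, leak channels. Peaks were found for 27 of 30 voltage-gated pore-forming genes, 8 of 10 silent modifiers, 10 of 15 inward rectifiers, 10 of 14 leak channels, 7 of 8 calcium- or sodium-activated channels and 11 of 15 auxiliary subunits. No share over all RefSeq genes is set beside these counts, so they are descriptions only.

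H3K4me3 in NeuN+ nuclei sat at the starts of these genes. Of the 67 peaks, 62 lay within 1 kb of an annotated start, 2 between 1 and 2 kb, and 3 in exons (Kcnh2, Kcnh6 and Kcns1). Promoter peaks made up 95.5%, beside 93.2% of all peaks of the table. The median GC content of the windows was 67.3%, beside 66.6% for all peaks, and no member window was a repeat. The mean WT value ran from 6.75 to 49.1 with a median of 24.7, beside 23.4 over all peaks.

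The highest H3K4me3 peaks in NeuN+ nuclei belonged to Kcnq3, a subunit of the M-current channel that holds back repetitive firing, to Kcnj4, an inward rectifier, and to Kcnk12, a silent member of the leak family. Kcnq3 had values of 66.9, 33.2 and 47.4 in WT, 22.9, 29.4 and 40.3 in Mutyh-/-, 19, 31.8 and 55.4 in Ogg1-/- and 33.8, 29 and 44.7 in DKO. Its WT mean of 49.1 ± 16.9 (SD, n = 3) was at percentile 99.9 of the table, and the genotypes overlapped. Kcnj4 had 60.5, 28.3 and 49.5 in WT and 25.1, 36.8 and 27.2 in Mutyh-/-, which overlapped as well, with a WT mean of 46.1 ± 16.4 (SD, n = 3). Kcnk12 followed at 36.9 ± 7.49 (SD, n = 3). The spreads of these 3 peaks overlap, so their order is not resolved.

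By class, the median WT value in this table was 26.3 for voltage-gated pore-forming subunits (25 peaks), 25.2 for silent modifiers (8), 24.8 for leak channels (9), 21.5 for auxiliary subunits (9), 20.2 for inward rectifiers (8) and 19.9 for calcium- or sodium-activated channels (8). The silent modifiers lay closest together, from 17.1 to 29, whereas the voltage-gated class ran from 11 to 49.1. The class medians differed by less than the range inside any class. In single WT libraries the coefficient of variation of a member peak had a median of 29.8%, beside 32.8% for all peaks.

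**Figure D2:**
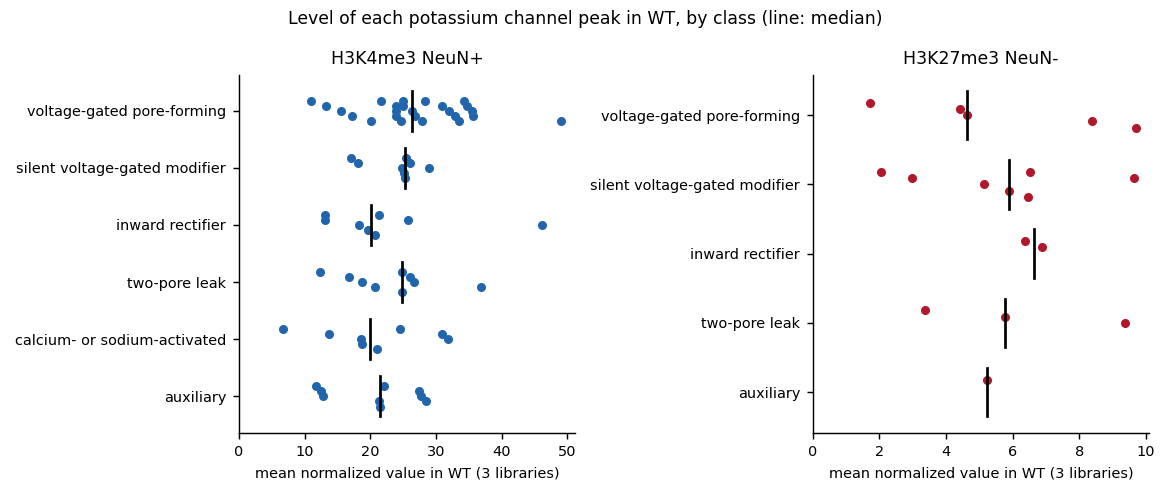
Mean normalized value in WT (x axis, 3 libraries a point) of each potassium channel peak, by class, for H3K4me3 in NeuN+ nuclei (left) and H3K27me3 in NeuN- nuclei (right), with the class median as a line; the panels are separate scales. H3K4me3 medians lie between 19.9 and 26.3, with Kcnq3 (49.1) and Kcnj4 (46.1) farthest to the right.

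In NeuN- nuclei, H3K4me3 was found at 13 genes, all within 1 kb of a start, and all 13 also had an H3K4me3 peak in NeuN+ nuclei. Over all genes of that table, 96% had one. Kcnma1, the pore of the large-conductance calcium-activated channel, had the highest WT mean, 18.1 ± 7.84 (SD, n = 3), at percentile 98 of the table. Its values were 26.3, 17.3 and 10.6 in WT, 20.9, 17.3 and 13 in Mutyh-/-, 14.8, 3.19 and 29.8 in Ogg1-/- and 19.5, 10 and 11.2 in DKO, which overlapped. Next came Kcna6 at 11.4 ± 7.29 and Kcnd2 at 11 ± 2.45 (SD, n = 3), voltage-gated subunits of delayed and transient currents. The median percentile of the 13 peaks was 25.9, and 6 of them lay below percentile 25 of the table. No silent modifier was among them.

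H3K27me3 in NeuN- nuclei had 18 peaks at 17 genes, of which 17 peaks were promoter peaks. That is 94.4% of the members, beside 47.7% of all peaks of the table. The median WT value was 5.84, beside 3.31 for all peaks, and 11 of the 18 peaks lay above percentile 75 and 0 below percentile 25. The windows had a median GC content of 59%, beside 52.6%, and a median observed-to-expected CpG ratio of 0.54, beside 0.35. All peaks of the table include many outside promoters. Level, GC content and CpG ratio were not compared among promoter peaks alone, so the difference in promoter share may enter each of them. The class named most often was the silent modifiers, with 6 of their 8 genes that had any peak: Kcng1, Kcng2, Kcng3, Kcns1, Kcns2 and Kcns3, while Kcnf1 and Kcnv1 had H3K4me3 in NeuN+ nuclei alone.

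Among the highest H3K27me3 values in NeuN- nuclei were those of Kcng3, a silent modifier, and Kcnk9, an acid-sensitive leak channel. Kcng3 had 14.6, 7.46 and 6.92 in WT, 11.5, 0 and 4.62 in Mutyh-/-, 8.77, 0.817 and 3.58 in Ogg1-/- and 14.7, 9.25 and 4.54 in DKO. Kcnk9 had 13.2, 3.32 and 11.5 in WT, 10.6, 3.17 and 5.78 in Mutyh-/-, 21.9, 0.817 and 19.1 in Ogg1-/- and 19.9, 4.62 and 19.3 in DKO. In all 4 genotypes the highest value of each gene was that of replicate 1, and the genotypes overlapped. The WT means were 9.65 ± 4.26 for Kcng3 and 9.36 ± 5.3 for Kcnk9 (SD, n = 3). Over the member peaks together, the median value per library was 7.28 to 10.5 in the libraries numbered 1 and 1.23 to 5.96 in the others. Member peaks took 0.57% to 0.896% of the reads in peaks in the former and 0.0524% to 0.432% in the latter. Promoter peaks of all genes shifted with them and repeat windows the other way, as given above. The part of these shifts in the levels was not tested.

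Of the 17 genes with H3K27me3 in NeuN- nuclei, 13 had an H3K4me3 peak in NeuN+ nuclei (76.5%), beside 677 of 1232 genes in the table as a whole (55%). Read the other way, the 13 were 20.3% of the 64 potassium channel genes with H3K4me3 in NeuN+ nuclei, beside 5.88% of 11512 genes. These shares are descriptions of peak lists called separately in libraries of unequal depth. They were not limited to genes with promoter peaks, which are more frequent among the members. The 13 genes were chosen after the peak lists were seen. They included the 6 silent modifiers, the voltage-gated Kcnc1, Kcnc4 and Kcnh3, the leak channels Kcnk9 and Kcnk12, and the inward rectifier Kcnj12. Kcnc1 and Kcnc4 encode channels of fast-firing neurons, and Kcnh3 a channel of forebrain neurons. The nearest windows of the marks lay 159 to 1113 bp apart between centres, with a median of 417 bp, and overlapped at 5 genes. In NeuN- nuclei H3K4me3 was found at Kcnk12 alone among the 13.

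**Figure D3:**
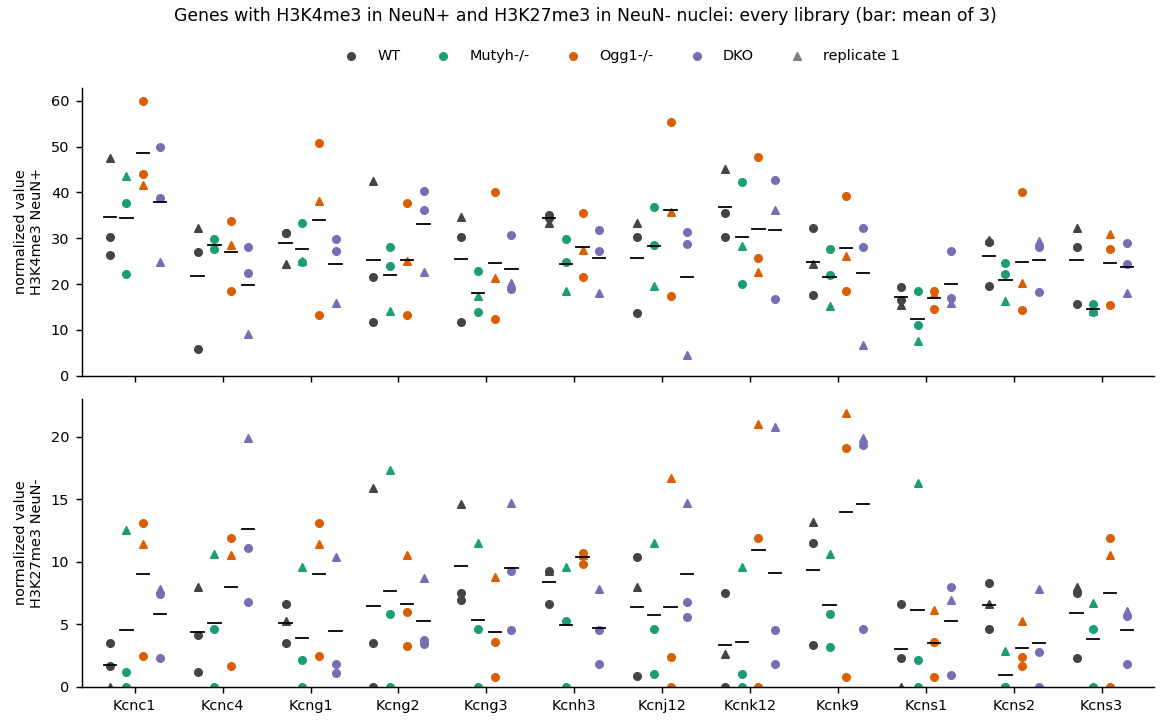
Normalized value (y axes, separate scales) of the highest peak of 12 of the 13 genes in every library, H3K4me3 in NeuN+ above and H3K27me3 in NeuN- below, coloured by genotype; triangles are replicate 1 and bars the mean of 3. In the lower panel many triangles lie on top, such as those of Kcnk9 at 13.2, 10.6, 21.9 and 19.9, and the genotypes overlap.

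Kcnk12 had all its windows together at its start. H3K4me3 in NeuN+ (36.9 in WT) and in NeuN- nuclei (4.4 ± 1.01, SD, n = 3) overlapped by 331 bp, and the H3K27me3 window of NeuN- nuclei overlapped them by 85 and 15 bp. Its H3K27me3 values were 2.65, 7.46 and 0 in WT and 20.8, 1.85 and 4.54 in DKO, with no separation of the genotypes.

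In NeuN+ nuclei H3K27me3 was found at 19 windows of 13 genes, and the picture was unlike that in NeuN- nuclei. Only 8 windows were promoter windows (42.1%, beside 26.5% of all peaks), 6 lay in introns, 4 in distal intergenic sequence and 1 in the 3′ end of Kcnmb1. Kcnip1, a calcium sensor that escorts Kv4 channels, had 4 of them and Kcnj1, the renal outer medullary channel, had 4. The genes marked in NeuN+ and in NeuN- nuclei shared Kcnj5, Kcnk15 and Kcnq1, which were 23.1% of the 13 and 17.6% of the 17, beside 32.2% and 57.8% over all genes. These 3 had no H3K4me3 peak in either fraction. Kcnj5 and Kcnq1 are channels best known from heart.

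Annotation to the closest gene limits what these windows say of a channel. In GENCODE M21, 2 of the windows named for Kcnj1 lie inside the neighbouring gene Fli1, 62870 and 84581 bp from the start of Kcnj1, and the other 2 lie in no gene. The windows named for Kcnh7 and Kcnh8 lie in no gene. The former is 390014 bp from the start of Kcnh7, and the latter is 217843 bp from the deposited start and closest to the start of Efhb. Over all 119 windows, the closest protein-coding start was that of the named gene for 113.

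The highest H3K27me3 means of NeuN+ nuclei were those of Kcnj8, the pore of the vascular ATP-sensitive channel, Kcnip1 and Kcnq1. Kcnj8 had 6.57, 3.32 and 31.9 in WT, so that replicate 3 alone set its mean of 13.9 ± 15.6 (SD, n = 3). In the knockouts its values were 4.06, 14.4 and 13, then 13.9, 7.32 and 13.4, then 1.09, 9.69 and 15.2 for Mutyh-/-, Ogg1-/- and DKO. The promoter window of Kcnip1 had 11.3 ± 5.76 and that of Kcnq1 9.32 ± 0.885 (SD, n = 3).

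Promoter windows of both marks in the same fraction were found for Kcnh2, Kcnip1 and Kcnj8 in NeuN+ and for Kcnk12 in NeuN- nuclei. At Kcnj8 the centres were 9 bp apart and the windows shared 392 bp. There, H3K4me3 was 18, 12.7 and 8.62 in WT, 5.45, 19.3 and 15.8 in Mutyh-/-, 19, 3.08 and 20 in Ogg1-/- and 6.77, 20.9 and 17.4 in DKO, at percentile 13.9 of its table for WT, whereas H3K27me3 was at percentile 95.5. At Kcnh2, the cardiac repolarising channel, and at Kcnip1 the windows of the marks did not overlap and lay at different starts. No potassium channel gene had peaks of all 3 antibodies in NeuN+ nuclei, and none had H3K4me3 in NeuN- nuclei alone.

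Suz12 was found at 2 potassium channel genes. In NeuN+ nuclei it lay in Kcna7, a voltage-gated channel of muscle, 786 bp from the deposited start, and next to an H3K27me3 window whose centre was 451 bp away. Kcna7 Suz12 values were 14.8, 44.6 and 17.4 in WT, 4.1, 23.8 and 15.2 in Mutyh-/-, 0, 28.3 and 14.1 in Ogg1-/- and 11, 16.7 and 29.1 in DKO. The library at 0 allows up to 3 reads, or a value of 2.97. The WT mean of 25.6 ± 16.5 (SD, n = 3) was at percentile 91.4 of the table. The log2 fold changes were -0.90, -1.64 and -0.35 in Mutyh-/-, Ogg1-/- and DKO (limma, SE 1.02 each), with unadjusted p of 0.379, 0.109 and 0.733, and the genotypes overlapped. Over all 775 peaks of the table the median log2 fold changes were -0.63, -0.57 and -0.06, so lower values in Mutyh-/- and Ogg1-/- were not particular to Kcna7. Every Mutyh-/- and Ogg1-/- library was lower than the WT library of the same number. With the replicate number as a block the unadjusted p was 0.223, 0.0338 and 0.631 (limma). Ogg1-/- passed the DER threshold there, with an adjusted p of 0.388 (limma). The library at 0, Ogg1-/- replicate 1, had the fewest reads in peaks of this table (6652). Without it the Ogg1-/- change was -0.17, with an unadjusted p of 0.866 (limma, no block). H3K27me3 at the neighbouring window was 8.42 ± 3.95 in WT, 11.9 ± 4.99 in Mutyh-/-, 8.79 ± 7.25 in Ogg1-/- and 8.35 ± 3.94 in DKO (SD, n = 3).

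In NeuN- nuclei the single Suz12 peak lay in an intron of Kcnj6, an inward rectifier opened by G proteins, 43694 bp from the deposited start. It had 6.72, 4.15 and 13.7 in WT, 13.2, 8.72 and 5.75 in Mutyh-/-, 6.44, 7.17 and 1.43 in Ogg1-/- and 4.49, 10.2 and 2.3 in DKO. These values overlapped between genotypes, with unadjusted p from 0.577 to 0.85 (limma). The Kcnj6 promoter had H3K4me3 in NeuN+ nuclei at 21.4 ± 1.82 in WT (SD, n = 3).

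Genotype was tested next, in one limma fit per table. A differentially enriched region (DER), as the study defines it, differed from WT by more than 0.5 on the log2 scale in either direction with an unadjusted p below 0.05, and all knockouts share the same WT libraries. In H3K4me3 NeuN+, 2 of 67 member peaks passed in Mutyh-/-, 2 in Ogg1-/- and 1 in DKO, that is 2.99%, 2.99% and 1.49%, beside a background of 0.911%, 0.966% and 1.46% of all peaks. These were 5 calls at 3 genes. In H3K27me3 NeuN+, 0, 0 and 1 of 19 passed, beside 3.78%, 3.82% and 3.36%. In H3K4me3 NeuN-, 0 of 13 passed in each knockout, beside 2.94%, 3.36% and 2.29%, and in H3K27me3 NeuN- 0 of 18, beside 2%, 4.18% and 2.3%. Neither Suz12 peak passed, beside 5.16%, 3.74% and 2.58% in NeuN+ and 3.85%, 11.2% and 6.73% in NeuN- nuclei. At an unadjusted p under 0.05 alone the member counts in these tables were the same. No member reached an adjusted p under 0.05 (limma with Benjamini-Hochberg adjustment), and the lowest was 0.881.

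Kcnh5, a voltage-gated channel of the ether-a-go-go family, was the 1 gene that passed in all knockouts. Its H3K4me3 window at chr12:75176737-75177137, 195 bp from the deposited start, had 16.7, 6.83 and 16.2 in WT, 26.2, 24.8 and 39.4 in Mutyh-/-, 44, 12.3 and 44.6 in Ogg1-/- and 29.3, 26.5 and 28.8 in DKO. All Mutyh-/- and DKO libraries lay above all WT libraries, whereas Ogg1-/- replicate 2 fell among them. Libraries of this table differed in level, with median member values from 16.4 (Ogg1-/- replicate 2) to 34.6 (Ogg1-/- replicate 3). The median was 17.6 in WT replicate 2, 17.4 in Mutyh-/- replicate 1 and 18 in DKO replicate 1. The means were 13.2 ± 5.55 in WT, 30.1 ± 8.08 in Mutyh-/-, 33.6 ± 18.5 in Ogg1-/- and 28.2 ± 1.48 in DKO (SD, n = 3). The log2 fold changes were 1.19, 1.17 and 1.13 (SE 0.47 each), with unadjusted p of 0.0167, 0.0181 and 0.0227 and an adjusted p of 1 in each (limma). The test over the 4 genotypes gave an unadjusted p of 0.0423 (limma F test). Without WT replicate 2 the changes were 0.81, 0.79 and 0.74 and none passed, with unadjusted p of 0.11, 0.118 and 0.139 (limma), so the calls share 1 control library.

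**Figure D4:**
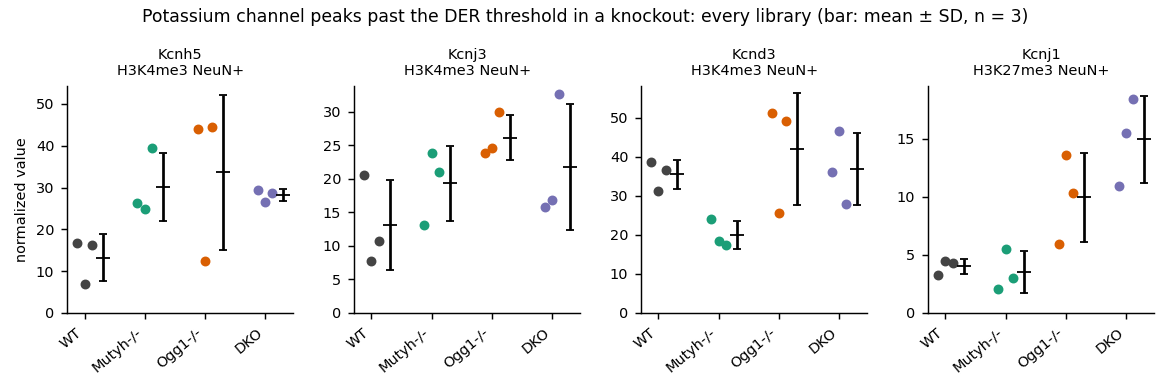
Normalized value (y axis) in every library of the 4 potassium channel peaks that passed the DER threshold, by genotype, with the mean ± SD of 3 libraries as a bar. For Kcnh5 the 3 WT libraries lie between 6.83 and 16.7 and the 3 DKO libraries between 26.5 and 29.3; for Kcnd3 the Mutyh-/- libraries lie between 17.5 and 24, under the WT libraries.

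Kcnd3, a pore of the transient A-type current, was lower in Mutyh-/-. It had 38.6, 31.2 and 36.6 in WT and 24, 18.4 and 17.5 in Mutyh-/-, with no overlap. Ogg1-/- (51.2, 25.6 and 49.2) and DKO (36.1, 46.6 and 28) overlapped WT. The log2 fold change in Mutyh-/- was -0.81 (SE 0.38, unadjusted p = 0.043, adjusted p = 1 by limma), and the call was lost on leaving out any of 7 of the 12 libraries.

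Kcnj3, a subunit of the G-protein-gated inward rectifier, was higher in Ogg1-/-. It had 20.6, 7.81 and 10.8 in WT and 23.8, 24.6 and 30 in Ogg1-/-, which did not overlap. The log2 fold change was 1.05 (SE 0.49, unadjusted p = 0.0399, adjusted p = 1 by limma), and the call was likewise lost on leaving out any of 7 libraries. The H3K4me3 peaks of Kcnj6 and Kcnj9, which encode subunits of the same family, did not pass, and Kcnj5, another, had no H3K4me3 peak.

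The H3K27me3 call was the intergenic window named for Kcnj1, 14883 bp from the deposited start and 36575 bp from that in GENCODE, in DKO. It had 3.29, 4.43 and 4.31 in WT, 2.03, 5.53 and 3 in Mutyh-/-, 5.95, 13.6 and 10.3 in Ogg1-/- and 10.9, 15.5 and 18.4 in DKO. Mutyh-/- overlapped WT, whereas all Ogg1-/- and DKO libraries lay above it. The log2 fold changes were -0.21, 1.07 and 1.65 (SE 0.82 each), with unadjusted p of 0.793, 0.191 and 0.0435 and an adjusted p of 0.998 in DKO (limma). WT libraries held 3, 4 and 5 reads and DKO libraries 10, 16 and 23. The call was lost on leaving out any of the WT libraries or DKO replicate 2 or 3.

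In H3K4me3 NeuN+ the median log2 fold change of the 67 peaks was -0.12 in Mutyh-/-, 0.02 in Ogg1-/- and 0.04 in DKO, beside -0.07, 0.08 and -0.02 over all peaks of the table. The median SE of a member was 0.47. Member peaks took 0.541% ± 0.00546 of the reads in peaks in WT, 0.525% ± 0.0131 in Mutyh-/-, 0.54% ± 0.00835 in Ogg1-/- and 0.566% ± 0.0553 in DKO (SD, n = 3). The DKO libraries were at 0.629%, 0.542% and 0.527%, and replicate 1, the highest, had the fewest reads in peaks of this table (96023). In H3K27me3 NeuN+ the medians of the 19 peaks were -0.55, 0.04 and 0.17, beside -0.21, -0.11 and -0.01, with a median SE of 0.97, and 14 of the 19 values were below 0 in Mutyh-/-. In the Mutyh-/- library numbered 1 the share of reads in promoter peaks was 12.1%, beside 29.7% to 37% in WT, and those of Ogg1-/- (23.4%) and DKO (20.7%) were low too. Repeat windows held 56.9%, 26.6% and 37.6% of the reads in these 3 libraries, beside 7.23% to 17.3% in WT. The part of these shares in the values was not tested.

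In NeuN- nuclei the medians were 0.27, 0.22 and -0.26 for the 13 H3K4me3 peaks, beside 0.22, 0.25 and 0.05 over all peaks, and -0.14, 0.35 and 0.55 for the 18 H3K27me3 peaks, beside 0.29, 0.58 and 0.41. The median SE of the latter was 1.13, so a change of the size seen at Kcnd3 was not detectable there. The 7 H3K27me3 peaks of silent modifiers had medians of -0.84, 0.19 and -0.17. Without the libraries numbered 1, a setting chosen after seeing the data, 2 libraries were left per genotype. The number of member calls was then 0 in all 3 tables of NeuN- nuclei. Calls over all peaks were 373 in H3K4me3, 93 in H3K27me3 and 68 in Suz12. With the replicate number as a block the member calls were 1 in H3K4me3 NeuN- (Kcna1 in Ogg1-/-) and 2 in H3K27me3 NeuN- nuclei (Kcns2 in Mutyh-/- and Kcnj5 in DKO). The block raised the calls over all peaks too, from 281 to 513 and from 144 to 294.

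**Figure D5:**
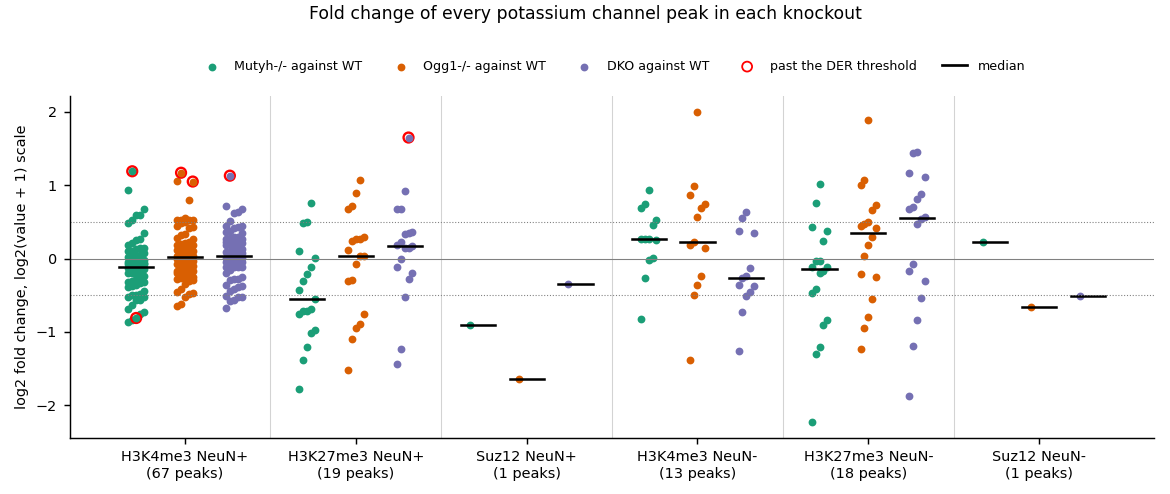
Log2 fold change against WT (y axis, log2(value + 1) scale) of every potassium channel peak in each knockout, for the 6 tables on the x axis, with the median as a bar, the DER fold threshold of 0.5 as dotted lines and peaks past the DER threshold circled. Of the 6 circled points 5 are H3K4me3 and 1 is H3K27me3, all in NeuN+ nuclei.

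Whether a knockout acted differently in the fractions was tested where a peak of each overlapped one to one. This was so for 12 H3K4me3 pairs of potassium channel genes, 1 H3K27me3 pair (Kcnq1) and 0 Suz12 pairs. No pair passed: the lowest unadjusted p was 0.0825, at Kcna1 in Ogg1-/-, where the log2 fold change of NeuN+ minus that of NeuN- was -1.97 (SE 1.10, adjusted p = 1 by limma). At an unadjusted p under 0.05 the count was 0 of 12 in each knockout, beside 2.3%, 1.8% and 1.8% of 3000 pairs. Kcnq1 H3K27me3 gave differences of -0.91, 0.24 and -0.74 (SE 0.93 each), with unadjusted p from 0.339 to 0.803 (limma).

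Genes that work with these channels without a Kcn symbol were counted from a list of 20, with the Kv4 partners Dpp6 and Dpp10, the sulphonylurea receptors Abcc8 and Abcc9, the Hcn pacemaker channels and scaffolds. H3K4me3 peaks in NeuN+ nuclei were found for 17 of them, with 0 of 20 peaks called in any knockout, beside the shares of 0.911%, 0.966% and 1.46% over all peaks, and median log2 fold changes of 0.13, 0.23 and -0.03. H3K27me3 peaks were found for 7 in NeuN+ and for 4 in NeuN- nuclei, H3K4me3 for 3 in NeuN- nuclei and Suz12 for 0, again with no call by limma.

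The letters TTCAGCACC, a core part of the RE1 element that the neuronal repressor REST binds, were searched on both strands of all windows. They were in 3 of 67 H3K4me3 windows of NeuN+ nuclei (Kcnc1, Kcng3 and Kcnh6), that is 4.48%, beside 0.705% of all windows of the same length in the table. In H3K27me3 windows of NeuN- nuclei they were in 1 of 18 (Kcnh3), that is 5.56%, beside 0.353%. They were in 0 of 19 H3K27me3 windows of NeuN+ and 0 of 13 H3K4me3 windows of NeuN- nuclei, and in neither Suz12 window. In RefSeq promoters of GRCm38, 250 bases before to 50 after each start, they were in 1 of 75 promoters of member genes (Kcnh6, 1.33%), beside 0.371% of all promoters, and in 0 of the 8 promoters found for genes with H3K4me3 in NeuN+ and H3K27me3 in NeuN- nuclei. A match of letters is not a bound site. The matches are shown as 30 bases, read in the direction of the motif, with the motif in capitals.
Kcnc1, chr7:46396841-46396870, plus strand: cccTTCAGCACCgccgcggaagcctgagtc
Kcng3, chr17:83631575-83631604, plus strand: acgTTCAGCACCaccgaggccgccccgccg
Kcnh6, chr11:106020472-106020501, minus strand: cctTTCAGCACCtgcgggtgtggggtatgg
Kcnh3, chr15:99225743-99225772, plus strand: tgaTTCAGCACCcctcactccccaatacat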

How the data were processed

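H3K4me3, H3K27me3 and Suz12 were measured by ChIP-seq in both fractions of the 4 genotypes (72 libraries). The authors aligned reads to GRCm38 with Bowtie2 2.3.5.1, called regions with epic2, kept those found in several replicates, counted reads with DiffBind 3.10.1 and annotated peaks with ChIPseeker 1.36. How duplicates and input were handled is not given in the sources used here, and input libraries were not used here. The deposited values are signal, the reads in each 401-bp window after scaling by the library's own factor. All values were whole multiples of 1 step per library within a tolerance of 0.001, so 100% came out as whole reads.

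Groups came from the labels. Values were fitted as log2(value + 1) with limma 3.58.1 in R 4.3.3, with 12 libraries per table, genotype as the term and trend on. This scale understates the change of low peaks. Adjusted p is the Benjamini-Hochberg value over all peaks of a table. On recovered reads, edgeR 4.0.16 and DESeq2 1.42.0 were alternatives. The fit was tested on simulated data. Differences between fractions used 24 libraries and peaks overlapping by at least 1 bp. By the study's methods both fractions were collected when a pool was sorted. The main fit took the 24 libraries as independent, with 1 common spread for both fractions. A block for genotype and replicate number was among the alternatives. Replicates are separate pools of mice by the study's methods, and p-values measure the spread between pools. Counting limits assume independent reads and cover counting error only.

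Named were the called members, the 3 genes with the highest WT mean of each table, genes with a Suz12 peak and genes with promoter peaks of both marks in a fraction. The result for 1 gene is not reported here, though it stays in the counts. The members, the classes, the lists and these rules were chosen with earlier results of these data known. Replicate numbers come from the labels. Where WT and knockout shared a number, their distances from the group mean correlated over 0.1 in every pair only for Mutyh-/- in Suz12 NeuN+ (0.388, 0.186 and 0.119). Gene bodies were read from GENCODE M21, and a genome of the same build gave the sequences.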

Additional observations from a re-analysis of the deposited data

How the results depend on the processing

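The number of DER calls at member peaks was recomputed under 22 alternatives for each table. In H3K4me3 NeuN+ it was 9 by edgeR with TMM factors against 5, with Kcnh6, Kcnq3 and Kcnj4 in Mutyh-/- and Kcnn3 in Ogg1-/- added. Calls over all peaks of that table rose too, from 422 to 1497. In H3K4me3 NeuN- it was 1 against 0 by edgeR with TMM factors, DESeq2 and limma with TMM factors (Kcna6 in Ogg1-/-). It was also 1 with the replicate block or the 6 libraries of the contrast (Kcna1 in Ogg1-/-). Calls over all peaks under these settings, in the order given, were 316, 404, 500, 513 and 307, against 281. In H3K27me3 NeuN- it was 1 by edgeR with TMM factors, 2 by limma with TMM factors, 3 by DESeq2 and 2 with the replicate block. These were at Kcns2 in Mutyh-/-, Kcnj5 in DKO and, by DESeq2, Kcng3 in Ogg1-/-. Over all peaks these settings gave 209, 207, 246 and 294 calls, against 144. In Suz12 NeuN+ the replicate block gave 1, Kcna7 in Ogg1-/- (-1.64, unadjusted p = 0.0338 by limma). Over all peaks of that table the block gave 239 calls, against 89. The Kcna7 change was -0.17 without Ogg1-/- replicate 1. The block changed no other member count by over 1.5 times. The labels give the libraries of a number no other link, though those numbered 1 differed from the others in their share of promoter reads in H3K4me3 NeuN- and in H3K27me3 of both fractions. In Suz12 NeuN+ this share was 12.1% to 38.7% in the libraries numbered 1 and 32.7% to 57.1% in replicates 2 and 3, ranges that overlapped. The cause of these differences was not tested.

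Leaving out each library in turn gave 2 to 6 calls in H3K4me3 NeuN+ (2 without Ogg1-/- replicate 1, and 3 without WT replicate 2 or 3, Mutyh-/- replicate 2 or 3 or DKO replicate 3), 0 to 2 in H3K27me3 NeuN+, 0 to 1 in Suz12 NeuN+, 0 to 1 in H3K4me3 NeuN-, 0 to 3 in H3K27me3 NeuN- and 0 in Suz12 NeuN-. Calls over all peaks then ran from 340 to 782 in H3K4me3 NeuN+ and from 100 to 270 in H3K27me3 NeuN-. Kcnh5 kept its call in 20, 18 and 21 of 22 alternatives in Mutyh-/-, Ogg1-/- and DKO, Kcnd3 in 13, Kcnj3 in 14 and Kcnj1 in 17, with the same direction in each. At Suz12 the sign turned for Kcna7 in DKO without WT replicate 2 (0.13; range over the libraries left out -0.70 to 0.13) and for Kcnj6 in Mutyh-/- by DESeq2 (-0.12), without WT replicate 2 (-0.13), without Mutyh-/- replicate 1 (-0.05) and without replicate 1 of every genotype (-0.10), with a range of -0.13 to 0.63 over the libraries left out. The difference between fractions passed at 0 member pairs under every alternative run, and Suz12 had no pair to test. No member reached an adjusted p under 0.05 by limma, edgeR or DESeq2 under any of these.

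In H3K27me3 and Suz12 limma took the spread from the trend over all peaks, whatever the scatter of the peak itself. A member window held a median of 5 reads in H3K27me3, which limits these tables more than H3K4me3 NeuN+ with 22.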
